A study of Mus musculus with 2 samples.

Results

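The genes described here are 10 members of the MHC class I antigen presentation pathway: H2-K1, H2-D1, H2-T23, B2m, Tap1, Tap2, Tapbp, Psmb8, Psmb9 and Nlrc5. They were taken as a fixed list of names, matched by gene symbol in the kallisto-layout tables and by gene identifier in the RSEM-layout tables, and all 10 were found among 55536 genes, of which 22028 are protein-coding. RSEM and kallisto are programs that estimate how many reads came from each transcript, and the deposited tables carry their column names. The data are total RNA profiles of hippocampus tissue from female B6CASTF1/J mice aged 18 to 20 months, an F1 cross of C57BL/6J with CAST/EiJ, with no treatment named in the labels. They form 1 group with 2 libraries, each made from 300 ng of RNA with ribosomal RNA reduced and ERCC spike-in RNAs added. The labels call them biological replicates 1 and 2. Both carry the same donor label and separate biosample labels, so their differences may be technical, and whether they came from separate animals cannot be told from the labels. The design has no contrast between groups, so no p-value was computed, and each ratio below describes these 2 libraries.

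MHC class I molecules hold short peptides from proteins made inside a cell and show them on its surface, where CD8 T cells and natural killer cells read them. The immunoproteasome cuts proteins into peptides, the TAP transporter moves the peptides into the endoplasmic reticulum, tapasin helps to load them, and a heavy chain folds around the peptide together with beta-2 microglobulin. Interferons raise transcription of most genes of the pathway. In brain, class I genes are known at high levels in endothelial cells and microglia and at lower levels in neurons, where they have been studied for roles in synapses. The tables hold whole tissue, in which fewer cells of a type and less RNA per cell cannot be told apart. H2 genes are also among the most variable genes between mouse strains, and the tables assign reads to the mm10 reference, which comes from C57BL/6J. How reads of the CAST/EiJ alleles were assigned was not tested.

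Gene-assigned expected counts, which are estimated read numbers that need not be whole, summed to 35358099 in replicate 1 and 36307276 in replicate 2 after rounding. The spike-ins held 0.493% and 0.489% of all counts. Levels are given as TPM, a relative abundance that corrects for effective transcript length and so can be compared between genes. Ratios are replicate 2 over replicate 1, from expected counts scaled by TMM factors, with exact 95% binomial intervals (Clopper-Pearson, conditional on the sum of both counts). The intervals cover counting error only.

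In the RSEM layout, 9 of the 10 genes reached 1 TPM in both libraries, as did 57.8% of protein-coding genes. Nlrc5 was the exception. B2m stood far above the others with 55.3 ± 4.97 TPM (SD, n = 2), and Tapbp, H2-K1 and H2-D1 followed with 16.1 ± 0.926, 13.4 ± 3.56 and 12.4 ± 2.31 TPM. The libraries of Tapbp overlapped those of H2-K1, and those of H2-K1 overlapped those of H2-D1, so the order within this trio was not resolved. Tap2 at 4.24 ± 1.17 TPM and H2-T23 at 2.72 ± 0.778 TPM came next and did not overlap, by a narrow margin, the lower Tap2 library being at 3.41 TPM and the higher H2-T23 library at 3.27 TPM. Psmb8, Tap1 and Psmb9 lay between 1.31 and 1.96 TPM on average, and each overlapped its neighbour in the order. Nlrc5 was lowest with 0.17 ± 0.071 TPM and did not overlap Psmb9. In the kallisto layout B2m and Nlrc5 kept the highest and the lowest place, H2-D1 stood above H2-K1 with overlapping libraries, and Tap2 and H2-T23 overlapped.

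**Figure D1:**
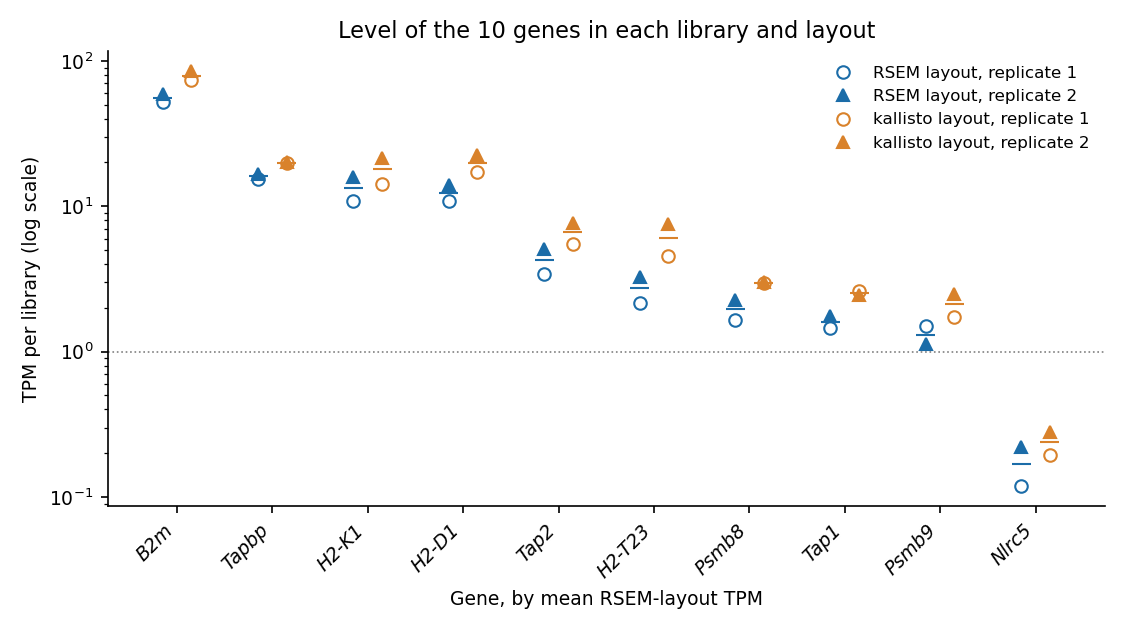
TPM of each gene on a log axis, with open circles for replicate 1, filled triangles for replicate 2, short bars for the mean of both, blue for the RSEM layout and orange for the kallisto layout. The dotted line is 1 TPM; B2m lies above all others, Nlrc5 alone lies below the line, and Psmb9 is the gene whose RSEM-layout triangle is below its circle.

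The heavy chain genes of the list are the classical H2-K1 and H2-D1, which present peptides to CD8 T cells, and the nonclassical H2-T23, which encodes Qa-1 and is read by inhibitory receptors of natural killer cells. All lie on chromosome 17 of mm10, H2-K1 at 33996017 to 34000347 on the minus strand, H2-D1 at 35262730 to 35267499 on the plus strand and H2-T23 at 36029773 to 36032855 on the minus strand. The 250 bases upstream of the RefSeq starts of H2-K1 (chr17:34000334-34000583, minus strand) and H2-D1 (chr17:35262844-35263093, plus strand), from the GRCm38.p6 table of RefSeq, are shown because they are much alike. Whether this sequence bears on the ratios of the libraries was not tested. The H2-D1 window lies inside the annotated H2-D1 gene given above, which starts further upstream, and the H2-K1 window overlaps the annotated H2-K1 gene in part. Capitals mark matches on either strand to AANNGAAA (the core bound by interferon regulatory factors), TGACG (the core of the cyclic AMP response element), CCAAT and the NF-kappa-B consensus.
H2-K1: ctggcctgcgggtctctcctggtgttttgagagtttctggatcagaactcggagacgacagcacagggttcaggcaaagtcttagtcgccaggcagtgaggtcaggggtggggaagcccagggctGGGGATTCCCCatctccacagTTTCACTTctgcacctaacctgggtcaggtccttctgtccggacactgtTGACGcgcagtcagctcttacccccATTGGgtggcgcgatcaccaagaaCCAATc
H2-D1: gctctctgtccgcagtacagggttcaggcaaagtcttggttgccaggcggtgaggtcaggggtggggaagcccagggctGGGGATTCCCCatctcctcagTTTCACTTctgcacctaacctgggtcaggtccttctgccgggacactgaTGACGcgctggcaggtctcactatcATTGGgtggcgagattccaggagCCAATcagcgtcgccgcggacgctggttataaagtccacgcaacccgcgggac
The stretch from 192 to 1 bases before the H2-K1 start aligned with 238 to 48 bases before the H2-D1 start, with 172 of 192 aligned columns identical (89.6%). In both, the NF-kappa-B match, the interferon regulatory factor core, the TGACG match and 2 CCAAT matches follow each other in the same order. The H2-K1 window shown is that of the start at 34000333; the table also holds a start at 34000347, whose 250-base window has 1 CCAAT match. No match overlapped another motif, apart from shifted matches to the NF-kappa-B consensus within the same run of capitals. A match describes letters and does not show binding.

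H2-K1 had 276 counts in replicate 1 and 429 in replicate 2, or 10.9 and 15.9 TPM. Replicate 2 was 1.52-fold higher (interval 1.30 to 1.77). The kallisto-layout counts were 286 and 477, and the ratio was 1.64 (1.42 to 1.91). The libraries were apart by more than counting error in both layouts, and the deposited posterior SD of the gene's count was 0.74 and 0.85 counts. That SD belongs to the sum for the gene and does not describe how reads were divided among its transcripts.

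H2-D1 had 481 and 702 counts, or 10.8 and 14.1 TPM. Its ratio was 1.43 (1.27 to 1.60), and 1.42 (1.26 to 1.59) by the kallisto layout, in which the counts were 496 and 713. This ratio was close to that of H2-K1, with overlapping intervals, and H2-D1 over H2-K1 in TPM was 0.937 ± 0.077 (SD, n = 2) in the RSEM layout and 1.12 ± 0.12 by the kallisto layout, so which of the pair is more abundant depended on the layout.

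H2-T23 had 78 and 131 counts, or 2.17 and 3.27 TPM, and a ratio of 1.64 (1.23 to 2.20). The kallisto layout gave it more counts, 111 and 181, with a ratio of 1.61 (1.26 to 2.05). Replicate 2 was thus the higher library for all 3 heavy chains in both layouts. The RefSeq window of H2-T23 held 2 matches to AANNGAAA and a CCAAT match.

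B2m encodes beta-2 microglobulin, the light chain shared by all class I molecules, and is the only member on chromosome 2, at 122147686 to 122153083 on the plus strand. Its annotation has 1 transcript of 860 bases, none of whose 31-base stretches occurred in another gene's transcripts. The 250 bases upstream of its RefSeq start (chr2:122147437-122147686, plus strand, GRCm38.p6) are shown because they hold the same motifs as the heavy chain pair, the NF-kappa-B match here being downstream of the AANNGAAA match.
B2m: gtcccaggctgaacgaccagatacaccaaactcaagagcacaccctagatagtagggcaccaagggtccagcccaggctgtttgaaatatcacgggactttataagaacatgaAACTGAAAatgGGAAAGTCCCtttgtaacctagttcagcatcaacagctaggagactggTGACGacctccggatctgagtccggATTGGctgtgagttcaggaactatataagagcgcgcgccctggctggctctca
B2m had 1005 counts in replicate 1 and 1220 in replicate 2, or 51.8 and 58.8 TPM. Replicate 2 was 1.19-fold higher (1.09 to 1.29). The kallisto layout gave fewer counts, 737 and 867, and a ratio of 1.16 (1.05 to 1.28). B2m therefore differed in the same direction as the heavy chains. Its interval did not reach that of H2-K1 in either layout, and overlapped those of H2-D1 and H2-T23 in both. The summed TPM of H2-K1 and H2-D1 was 0.419 of the B2m TPM in replicate 1 and 0.51 in replicate 2, a mean of 0.464 ± 0.064 (SD, n = 2), and 0.472 ± 0.067 in the kallisto layout.

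Tap1 and Tap2 encode the subunits of the peptide transporter, and Tapbp encodes tapasin, which bridges the transporter to the heavy chain. All are on the plus strand of chromosome 17, Tap1 at 34187553 to 34197225, Tap2 at 34203527 to 34216321 and Tapbp at 33915899 to 33929292. Tap1 had 90 and 122 counts, or 1.45 and 1.75 TPM. Its ratio of 1.32 had an interval from 0.9998 to 1.76, so the libraries were not apart beyond counting error, and the kallisto layout with 98 and 128 counts gave 1.29 (0.981 to 1.69). The kallisto-layout TPM of Tap1 was 2.61 and 2.46, lower in replicate 2, so its direction there differed from that of its counts. Tap2 had 227 and 297 counts, or 3.41 and 5.07 TPM, and a ratio of 1.28 (1.07 to 1.53). The kallisto counts of Tap2, 273 and 347, gave 1.25 (1.07 to 1.47), and the interval lay above 1 in both layouts. Tapbp had 788 and 830 counts, or 15.5 and 16.8 TPM. At 1.03 (0.932 to 1.14) it had the ratio nearest to 1 of the 10 genes, and the kallisto counts of 848 and 878 gave 1.02 (0.927 to 1.12). Tap2 over Tap1 was 2.62 ± 0.386 in TPM (SD, n = 2), and most Tap2 counts in either layout belonged to a transcript with a retained intron, described with the transcripts.

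Psmb8 and Psmb9 encode catalytic subunits of the immunoproteasome, which replace the constitutive subunits of Psmb5 and Psmb6. Psmb8 lies at 34197721 to 34201454 on the plus strand of chromosome 17 and Psmb9 at 34181987 to 34187764 on the minus strand, with its start facing that of Tap1. The 225 bases between the RefSeq starts of Psmb9 and Tap1 (chr17:34187331-34187555, plus strand, GRCm38.p6) are shown because they lie upstream of both RefSeq starts. The annotated Psmb9 gene reaches to 34187764, so the whole stretch lies inside it.
Psmb9 and Tap1: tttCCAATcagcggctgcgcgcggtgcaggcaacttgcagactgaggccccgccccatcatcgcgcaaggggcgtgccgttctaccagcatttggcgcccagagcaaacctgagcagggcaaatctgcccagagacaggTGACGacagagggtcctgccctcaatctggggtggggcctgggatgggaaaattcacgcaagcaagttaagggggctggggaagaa
The stretch held 1 CCAAT and 1 TGACG match, in capitals, and neither the interferon regulatory factor core nor TTCNNNGAA, the gamma-activated site. The annotated Psmb9 and Tap1 genes overlap on opposite strands and shared 31-base stretches, 4.79% of those of Psmb9. The strand setting of the counting is not given in the sources used here, so reads of the overlap may have gone to either gene.

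Psmb8 had 36 and 61 counts, or 1.64 and 2.28 TPM, and a ratio of 1.65 (1.08 to 2.57). The kallisto layout, with 44 and 67 counts, gave 1.5 (1.01 to 2.25). Psmb9 had 27 and 35 counts and a ratio of 1.27 (0.744 to 2.17), with 30 and 37 counts and 1.21 (0.73 to 2.04) in the kallisto layout. In the RSEM layout Psmb9 was the member whose direction depended on the unit: its TPM there was 1.5 in replicate 1 and 1.12 in replicate 2, a log2 difference of -0.42, while its counts differed by 0.32 the other way. The gene length in the deposited table, a mean over the estimated transcripts, was 806 bases in replicate 1 and 1240 bases in replicate 2. The kallisto-layout TPM of 1.73 and 2.51 followed the counts.

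Constitutive subunits were far more abundant, Psmb5 at 82.1 ± 3.08 TPM and Psmb6 at 77.8 ± 2.93 TPM. The summed TPM of Psmb8 and Psmb9 was 0.0205 ± 0.0019 of that of Psmb5 and Psmb6 (SD, n = 2), so the constitutive pair stood 49.0 ± 4.6-fold higher. In the kallisto layout the share was 0.0222 ± 0.0027. Psmb10, the other inducible subunit and not among the 10 genes, reached 25.4 ± 0.297 TPM, and its ratio to Psmb7, the subunit it replaces, was 0.323 ± 0.0023.

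Nlrc5 encodes the transactivator that assembles on class I promoters, the counterpart of Ciita for class II. It lies on chromosome 8 at 94434356 to 94527272 on the plus strand. Counts were 13 in replicate 1 and 32 in replicate 2, or 0.12 and 0.22 TPM. Its ratio of 2.40 (1.23 to 4.99) was the highest of the 10, as was the kallisto-layout ratio of 2.74 (1.46 to 5.47) from 14 and 39 counts. With a mean count under 50 it did not enter the counts of members below. Ciita had 0 and 5 counts.

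Of the 7 members with a mean count of 50 or more, 0 differed over 2-fold, where 0.384% of 14307 genes did. Intervals lay above 1 for 5 of the 7, namely H2-K1, H2-D1, H2-T23, B2m and Tap2, where 9.86% of all genes with such counts did, and below 1 for 0 of the 7 against 10.2%. A ratio above 1.25 was found for 5 of the 7, H2-K1, H2-D1, H2-T23, Tap1 and Tap2, and for 3.93% of all genes. The median log2 ratio of the 7 was 0.40, beside 0.00 over all 14307 genes, whose median absolute log2 ratio was 0.07. Over 11962 genes with a mean count of 20 to 1500, nearer to the counts of the members, the median absolute log2 ratio was 0.11. By the kallisto layout 8 members passed the count minimum. None of these differed over 2-fold (0.309% of 14902 genes), 6 had intervals above 1 (10.3%), 0 below 1 (9.74%), and 6 had a ratio above 1.25 (3.9%). The list was proposed with earlier results of these libraries known, so these shares are a description of these libraries and are not independent evidence of a direction.

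**Figure D2:**
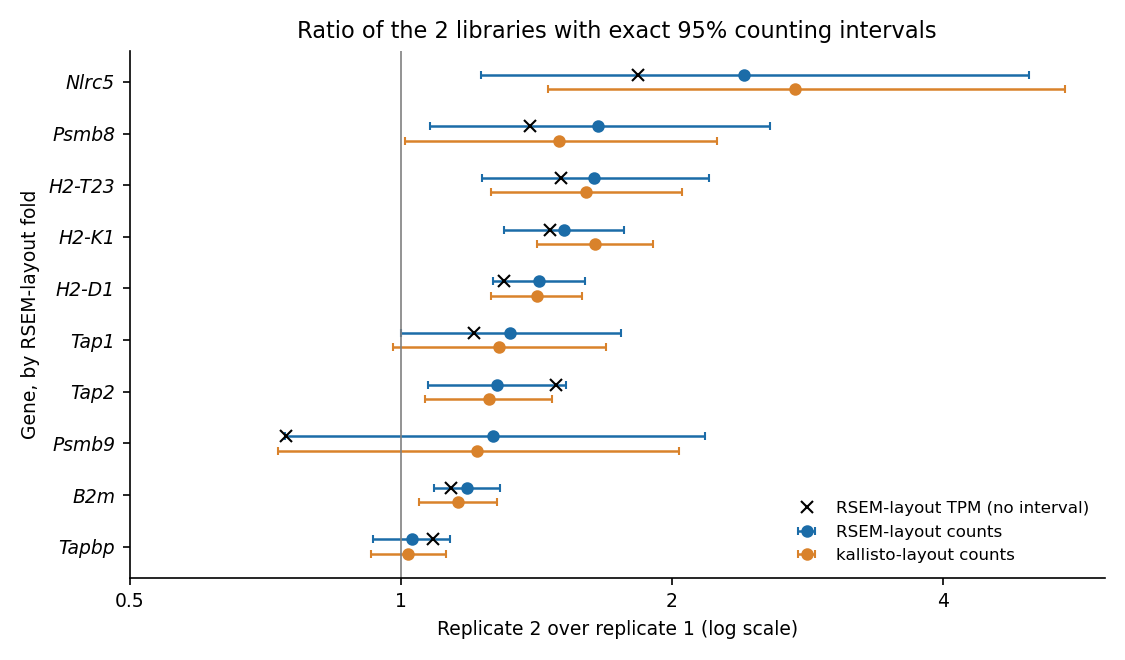
Ratio of replicate 2 over replicate 1 on a log axis for each gene, with exact 95% counting intervals for RSEM-layout (blue) and kallisto-layout (orange) counts and black crosses for the ratio of RSEM-layout TPM. Intervals of Tapbp, Psmb9 and Tap1 reach 1, Nlrc5 has the widest intervals, and the Psmb9 cross lies left of 1.

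The RSEM-layout gene table also gives lower and upper bounds of a TPM estimate, whose confidence level is not given in the sources used here. Bounds of the libraries did not overlap, with replicate 2 higher, for 3 of the 7 members, and this held for 0.895% of 14307 genes. They were H2-K1, with 10.1 to 14.6 TPM in replicate 1 and 14.8 to 19.7 TPM in replicate 2, H2-D1, with 9.58 to 12.3 and 12.7 to 15.5 TPM, and B2m, with 47.5 to 53.7 and 54.2 to 60.6 TPM. Each gap was small beside the width of the bounds. For 0 of the 7 the bounds were apart with replicate 2 lower, against 7.11% of all genes. In deposited TPM the median log2 ratio of all genes was -0.06, slightly lower in replicate 2. For Nlrc5 the TPM of both libraries lay below their own bounds, 0.12 against 0.2 to 0.951 in replicate 1 and 0.22 against 0.329 to 1.10 in replicate 2.

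The kallisto layout gave higher TPM than the RSEM layout for most genes, and the members were read against that common shift. Over 12689 protein-coding genes at 1 TPM or more, the median kallisto over RSEM ratio of TPM was 1.64 in replicate 1 and 1.71 in replicate 2. Over the 10 members it was 1.60 and 1.42, a mean of 1.51. All 10 members lay within 1.5-fold of the common ratio in both libraries, including Nlrc5, which was under 1 TPM. At 1 TPM or more in both layouts, this held for 9 of 9 members and 92.0% of the 12689 genes. H2-T23 stood at the upper end in both libraries with ratios of 2.08 and 2.32, and Psmb9 moved most between libraries, from 1.16 to 2.24. In counts, the member medians were 1.08 in both libraries, beside 1.08 and 1.08 over the protein-coding genes. B2m was the member with fewer kallisto than RSEM counts, at ratios of 0.733 and 0.711, where 987 protein-coding genes of under 1000 bases had medians of 0.954 and 0.957. H2-T23 had the highest count ratios, 1.42 and 1.38.

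The members have 69 annotated transcripts between them, and the layouts often divided the same gene differently. By TPM the same transcript led in both layouts and libraries for 5 of the 10 genes: H2-D1-202, H2-T23-201, Tap1-206, Tap2-202 and B2m-201, the last being the sole B2m transcript. Counting only genes with more than 1 transcript at 1 TPM or more, this was 4 of 8 members and 68.2% of 11515 protein-coding genes. By counts the same transcript led for 7 of the 10.

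H2-K1 was led by different transcripts. In the RSEM layout the 457-base retained-intron transcript H2-K1-215 held 39.7 ± 0.389% of the gene's TPM (SD, n = 2), and in the kallisto layout H2-K1-201, a protein-coding transcript of 1619 bases, led with 43.5 ± 2.95%, H2-K1-215 holding 9.3% and 0%. In counts H2-K1-215 was smaller, with 39.2 and 62.1 of the 276 and 429 RSEM-layout counts. The higher counts of replicate 2 fell unevenly on the coding transcripts: H2-K1-205 had 60.8 and 195 counts and H2-K1-201 had 133 and 143. The kallisto layout gave H2-K1-205 88.4 and 210 counts and H2-K1-201 159 and 224. H2-D1 was simpler, with 86.2 ± 3.59% and 87.8 ± 5.53% of its TPM on the protein-coding H2-D1-202 in the RSEM and kallisto layouts.

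Tap2 was the member with the largest share of counts on retained-intron transcripts, a class in which an intron is kept and no protein is annotated. Tap2-202, of 2561 bases, held 79.3 ± 5.63% of Tap2 TPM in the RSEM layout and 58.4 ± 0.077% by the kallisto layout. In the RSEM layout it had 178 and 257 counts, and the protein-coding Tap2-201 had 48.6 and 33.8. The higher count of Tap2 in replicate 2 thus lay in Tap2-202, while Tap2-201 was lower there. The kallisto layout gave Tap2-201 136 and 151 counts and Tap2-202 137 and 194, so the direction of Tap2-201 differed between layouts. Retained-intron transcripts held 82.5 ± 5.51% of Tap2 counts in the RSEM layout and 53.1 ± 4.12% by the kallisto layout. Over 7512 protein-coding genes with such a transcript and a mean count of 50 or more, the median share was 4.78% and 2.62% of genes were over 50%. In the kallisto layout, with 7615 genes, these values were 4.85% and 3.43%. Total RNA also holds unspliced transcripts, and intron reads were not measured apart.

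Other members also had sizeable retained-intron shares. They held 27.3 ± 1.54% of Tap1 counts and 18.3 ± 1.80% of H2-K1 counts in the RSEM layout, and 30.3 ± 1.78% and 7.60 ± 2.76% in the kallisto layout. For Psmb8 the layouts disagreed, with 48.3 ± 15.5% and 9.39 ± 4.02%. The RSEM layout put Psmb8 counts on Psmb8-203, with 22.5 and 24.8, and on the retained-intron Psmb8-205, with 10.1 and 26.6, and none on Psmb8-201, whereas the kallisto layout put 23 and 52.5 on Psmb8-201 and none on Psmb8-205. In the RSEM layout the replicate 2 excess of Psmb8 was mostly Psmb8-205. Psmb9 shifted within the RSEM layout, from the 433-base Psmb9-202 with 67.1% of TPM in replicate 1 and 0% in replicate 2 to the 1352-base Psmb9-204 with 19.0% and 65.5%, on 27 and 35 counts in all. Tapbp was divided between coding transcripts: Tapbp-206 led with 47.4 ± 0.969% in the RSEM layout and Tapbp-201 with 67.4 ± 0.902% by the kallisto layout. Tapbp-208 held 26.6 ± 3.03% in the RSEM layout and 0% by the kallisto layout. For these Tapbp transcripts the libraries were closer to each other within a layout than the layouts were. This did not hold for Psmb9, as Psmb9-204 had 58.4% and 59.2% of TPM in the kallisto layout.

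**Figure D3:**
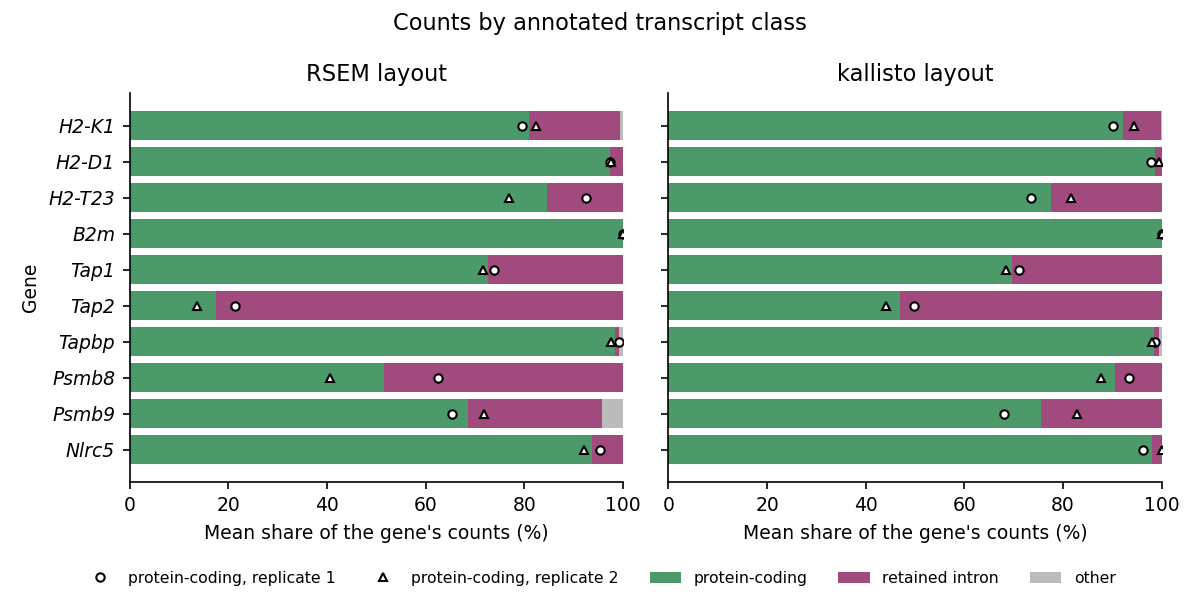
Mean share of each gene's counts on protein-coding (green), retained-intron (purple) and other (grey) transcripts in the RSEM layout (left) and kallisto layout (right), with the protein-coding share of each library as circles and triangles. Tap2 is mostly purple in the RSEM layout at 82.5%, and Psmb8 differs most between the panels, at 48.3% and 9.39%.

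H2 heavy chain genes are paralogs with long stretches in common. Of the distinct 31-base stretches in the annotated transcripts, 22.8% of H2-K1, 26.9% of H2-D1 and 25.8% of H2-T23 also occurred in other genes. For stretches of 100 bases the shares were 0.957%, 3.59% and 3.15%. H2-K1 and H2-D1 shared most with each other, 11.1% of the H2-K1 stretches of 31 bases. Outside the heavy chains, Tapbp shared 26.9%, mostly with Gm19412, Tap2 14.3%, mostly with Gm15821, and Psmb8 13.7%, mostly with Gm20496. Sharing was higher in H2-T22 and H2-T10, at 67.4% and 64.2%, mostly with each other, and in the H2-Q genes, at 53.0% for H2-Q4, 51.8% for H2-Q6 and 39.2% for H2-Q7. For stretches of 100 bases H2-T22 and H2-T10 shared 31.5% and 28.1%. Counts of these 5 genes may be uncertain, since reads could be split between genes.

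Among heavy chains with a mean count of 50 or more, H2-Q4 was the one that differed over 2-fold in the RSEM layout, with 31.1 and 99.6 counts and a ratio of 3.15 (2.09 to 4.88). In the kallisto layout it had 100 and 190 counts and a ratio of 1.87 (1.46 to 2.41), which is under 2-fold. H2-Q7 had 11.2 and 54.5 counts by the RSEM layout and 54.1 and 108 by the kallisto layout, and H2-Q6 had 7.68 and 54.0 and 24.6 and 69.5. Replicate 2 was higher for these 3 genes in both layouts, and the ratios of H2-Q6 and H2-Q7 were 6.59 and 4.79 in the RSEM layout and 2.76 and 1.97 by the kallisto layout. Summed over 6 H2-Q genes the ratio was 3.44 (2.61 to 4.58) in the RSEM layout and 2.00 (1.69 to 2.37) by the kallisto layout.

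The intervals of H2-T22 and H2-T23 did not overlap in either layout, but they cover counting error only. Most 31-base stretches of H2-T22 occur in other genes, so its reads could be split between genes. Its deposited posterior SD was 3.18 and 3.15 counts, and the kallisto layout gave it 309 and 301 counts, close to the RSEM layout. H2-T22, the most abundant of the other H2 heavy chains at 6.09 ± 0.049 TPM, had 290 and 301 counts and a ratio of 1.01 (0.86 to 1.19), and H2-T10 had 40.3 and 33.0 counts and 0.806 (0.492 to 1.31). H2-T24 had 26 and 38 counts, with a ratio of 1.43 (0.844 to 2.45), H2-M3 had 39 and 47, with 1.18 (0.753 to 1.85), and H2-M5 had 12 and 14. H2-Q1 had 4.57 and 16.8 counts, and Cd1d1, a presenter of lipids, had 11 and 10. Over 17 heavy chain genes including H2-K1, H2-D1 and H2-T23, counts summed to 1313 and 1936 in the RSEM layout and 1565 and 2271 by the kallisto layout. The ratios of these sums were 1.44 (1.34 to 1.55) and 1.43 (1.34 to 1.52), so the family total depended less on the layout than its H2-Q members did. Among more distant class I relatives, Fcgrt, the neonatal Fc receptor, was at 7.59 ± 0.035 TPM with a ratio of 1.05 (0.899 to 1.23), and Hfe and Mr1 had ratios of 1.25 (0.90 to 1.75) and 1.18 (0.905 to 1.55).

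**Figure D4:**
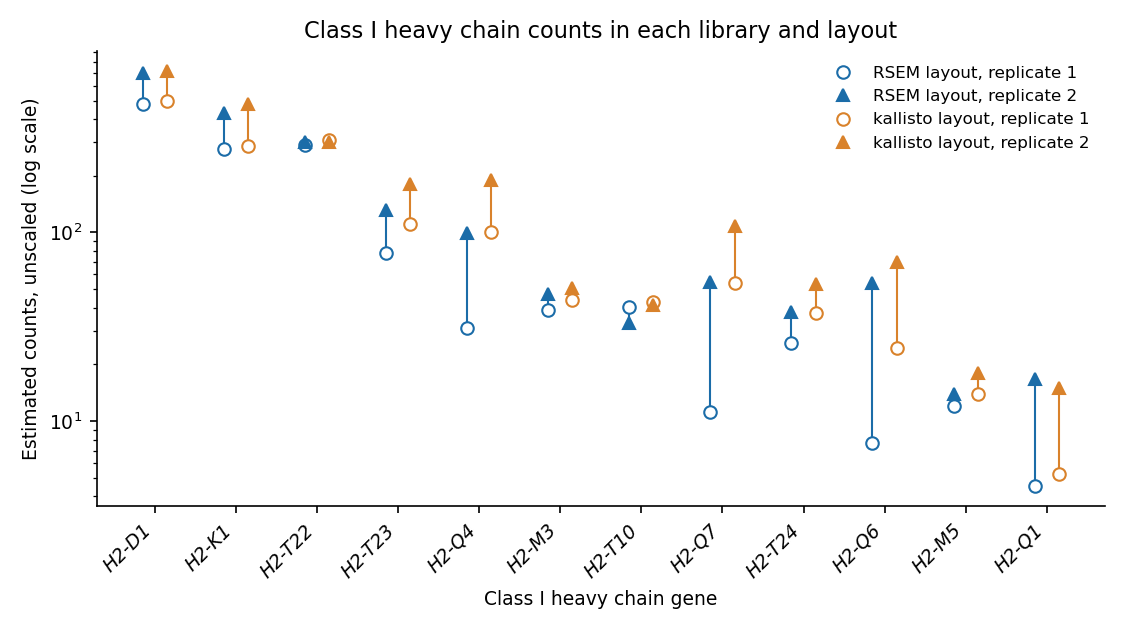
Unscaled estimated counts, on a log axis, of the 12 H2 heavy chain genes with a mean count of 10 or more, with open circles for replicate 1, filled triangles for replicate 2, and a line joining them, in blue for the RSEM layout and orange for the kallisto layout. Lines of H2-Q4, H2-Q6 and H2-Q7 are longer and lower in blue than in orange, and those of H2-T22 are too short to see.

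Other genes of peptide processing and protein folding lay nearer to a ratio of 1, as a list, than the members did. Of 14 other processing genes, all with a mean count of 50 or more, 1 had an interval above 1, Erap1, the peptidase that trims peptides in the endoplasmic reticulum, with 217 and 288 counts and a ratio of 1.30 (1.08 to 1.55). Intervals of 2 lay below 1, namely Calr (0.90, 0.876 to 0.925) and Hspa5 (0.768, 0.745 to 0.792), chaperones of that compartment. The list had a median log2 ratio of 0.01. Canx, the chaperone calnexin, had 12822 and 13178 counts and a ratio of 1.00 (0.979 to 1.03), and Pdia3 had 0.967 (0.929 to 1.01). The proteasome activator genes Psme1 and Psme2 had ratios of 1.02 (0.903 to 1.15) and 1.12 (0.953 to 1.32), with levels of 22.9 ± 0.106 and 22.9 ± 1.65 TPM.

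Regulators and receptors upstream of the pathway differed little. Of 14 class I regulators with a mean count of 50 or more, 0 had an interval above 1 and 1 below, Rfxap, a subunit of the RFX complex, at 0.865 (0.769 to 0.972). Their median log2 ratio was -0.08. Irf1, an interferon-induced activator of class I genes, had 187 and 167 counts and a ratio of 0.872 (0.703 to 1.08). Of 7 interferon receptor and kinase genes, 0 had an interval above or below 1, with a median of -0.03. Of 8 interferon-stimulated genes with such counts, 4 had intervals above 1 and 0 below, and the median was 0.46. Ifit3 was at 1.55 (1.08 to 2.25), Gbp2 at 1.62 (1.08 to 2.45), Gbp3 at 1.67 (1.22 to 2.32) and Irgm1 at 1.36 (1.07 to 1.73). Their counts were low, and Ifitm3, the highest of the list, reached 4.96 ± 0.509 TPM. By the kallisto layout 3 of 7 such genes had intervals above 1. Among class II genes H2-DMa was at 12.1 ± 1.48 TPM with a ratio of 1.16 (0.989 to 1.36) and Cd74 at 2.10 ± 0.396 TPM with 1.37 (0.957 to 1.99), so neither was apart beyond counting error. The class I receptor genes Pirb and Klra2 had at most 13.5 counts in a library in the RSEM layout, and at most 28.8 and 14.8 by the kallisto layout.

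Markers of vessels, meninges and blood were also higher in replicate 2, and are given here because class I genes are known at high levels in some of those cells. Their part in the ratios of the members was not tested. Intervals lay above 1 for 7 of 10 endothelial markers, with a median log2 ratio of 0.29 and ratios from 1.00 to 1.57, and their summed TPM was 95.5 in replicate 1 and 103 in replicate 2. Of 7 mural cell markers with a mean count of 50 or more, 6 were above and 1, Rgs5, below, and the sums of the whole list were 50.6 and 63.8 TPM. Meningeal fibroblast markers summed to 58.1 and 96.4 TPM, with 7 of 8 above and a median of 1.05. Among them Igf2 had 925 and 2100 counts (2.22, 2.05 to 2.40). Erythroid markers, all 5 above, summed to 345 and 521 TPM, and Hba-a1 was at 1.62 (1.53 to 1.72). Border macrophage markers summed to 4.70 and 5.92 TPM, with 2 of 3 above.

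Microglia markers, at 220 and 211 TPM in sum, had 0 of 10 intervals above or below 1 and a median of 0.09, with Csf1r at 1.05 (0.998 to 1.11). In the kallisto layout 2 of these 10 lay above 1. Lymphocyte markers were low, with 12 and 20 counts summed over 10 genes in the RSEM layout, where 7 were at 0 in a library. In the kallisto layout they summed to 68.4 and 71.6 counts, with 4 at 0 in a library. Astrocyte markers summed to 1638 and 1600 TPM and excitatory neuron markers to 2750 and 2586 TPM, so the defining genes of the labelled tissue were abundant. In scaled counts these lists were not lower in replicate 2. Of 8 astrocyte markers 4 had intervals above 1 and 1 below, with a median of 0.04. Of 7 neuron markers 2 were above and 2 below, with a median of 0.00. Oligodendrocyte markers were lower in replicate 2 for 8 of 8, with a median of -0.38, and choroid plexus markers were lower for all 3 with such counts, Ttr having 4171 and 1456.

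**Figure D5:**
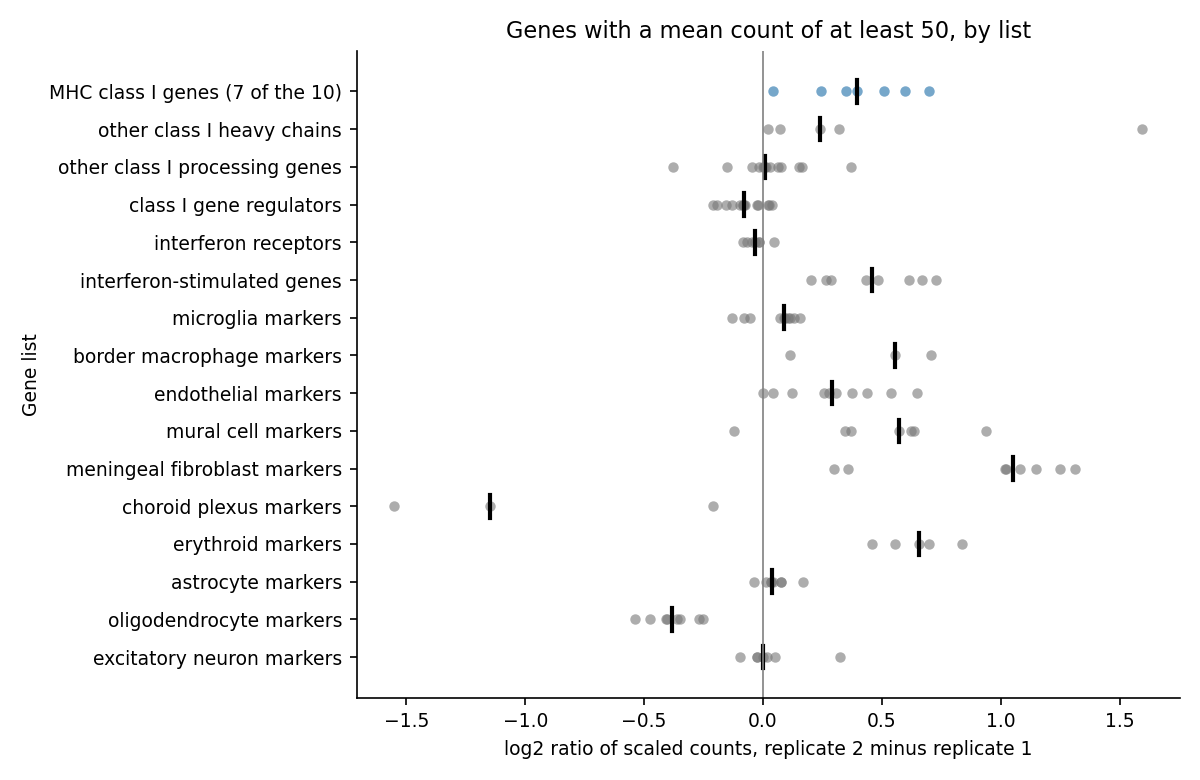
Log2 ratio of scaled counts, replicate 2 minus replicate 1, for genes with a mean count of 50 or more, as points by list, with a vertical bar at each list's median. The 7 MHC class I genes (blue) have a median of 0.40, beside 1.05 for meningeal fibroblast markers, 0.09 for microglia markers and -0.38 for oligodendrocyte markers.

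Upstream windows were compared over the 8 members in the RefSeq table; Tap2 and Nlrc5 were not looked up further. AANNGAAA was found in the 250 bases before 4 of the 8 (H2-K1, H2-D1, H2-T23 and B2m), where 21.3% of 32851 windows of the same length held it on either strand. TGACG was found in 5 of the 8 (17.8% of windows), and CCAAT in 7 of the 8 (33.8%). The NF-kappa-B consensus was found in H2-K1, H2-D1 and B2m (3.90% of windows). TTCNNNGAA was found in Psmb8 alone (7.02%). The 8 windows are not independent. Those of Psmb9 and Tap1 share 225 bases, so the same TGACG site and the same CCAAT site were counted for both genes. Those of H2-K1 and H2-D1 are alike over most of their length. With 8 such windows this is a description of letters, and the shares of all windows are no measure of an excess.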

How the data were processed

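Per the file headers, the deposited gene and transcript tables of the RSEM layout hold expected counts, posterior mean counts, TPM, FPKM, the percent of a gene's TPM on each transcript, and a posterior SD and TPM bounds used here as a score of spread. The deposited kallisto-layout tables hold estimated counts and TPM. Build mm10 and annotation GENCODE M21 are named in the deposited notes; the aligner, with its version and strand setting, was not given in the sources used here.

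Counts were rounded to whole numbers, summed per gene for the kallisto layout, and scaled by TMM factors after filterByExpr (edgeR 4.0.16, R 4.3.3). ERCC rows and rows without a gene name were left out. Log2 ratios used a prior count of 2, and shares of called genes a mean count of at least 50. Python 3.11.15, pandas 2.3.3, numpy 2.4.6, scipy 1.17.1, Biopython 1.88 and matplotlib 3.10.9 were used. The interval code was tested on simulated data. Alternatives were DESeq2 1.42.0 size factors, library and ERCC totals, TPM, FPKM, posterior means, the kallisto layout, other minimums and prior counts, and each library alone. Upstream sequences came from a RefSeq table of GRCm38.p6.

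The 10 genes and the 19 other gene lists were chosen with earlier results of these data known. Named were all 10 genes and some of their transcripts that lead or hold at least 10%. Also named were up to 4 highest genes of each other list, some genes over 2-fold apart and heavy chains with a mean count of at least 10. Erap1, Psme1, Psme2, Rgs5, Irf1, Ifit3, Gbp2, Gbp3, Ciita and Pirb were named after their values were seen. No Nlrc5 transcript was named. Some genes of the lists are not reported here.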

Additional observations from a re-analysis of the deposited data

How the results depend on the processing

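No paired analysis was possible because the 2 libraries form 1 group. Of the 60 alternative values of the summary results, 55 stayed within the limits set for them. The genes reaching a TPM minimum in both libraries were 4 at 5 TPM, beside 9 at 1 TPM. With a mean count minimum of 10, 1 gene, Nlrc5, was over 2-fold apart, beside 0. The median ratio of the layouts was 1.08 in counts and 1.51 in TPM. Within 1.2-fold of the common layout ratio lay 3 genes, beside 10 within 1.5-fold. The ratio of Psmb8 plus Psmb9 to Psmb5 plus Psmb6 was 0.0254 from posterior mean TPM, beside 0.0205. Psmb9 reversed, with a log2 ratio of -0.42 in deposited TPM and 0.32 in counts. With each library left out in turn, the immunoproteasome ratio was 0.0191 to 0.0219, the ratio of H2-K1 plus H2-D1 to B2m 0.419 to 0.51, the median layout ratio 1.42 to 1.60, genes detected 9 to 9, genes within 1.5-fold 10 to 10, and genes led by the same transcript 6 to 7. Between library scalings the median log2 ratio of the genes was 0.39 to 0.40. The ratio of summed heavy chain counts by layout was chosen after seeing the data.

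Depth limited Psmb8, Psmb9 and Nlrc5 most, with at most 61 counts in a library. With 2 libraries the SD of a level is itself poorly known, and no test between conditions can be made.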
